A study of Mus musculus with 30 samples.

Results

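CD4+CD25+ T cells from peripheral lymph nodes were compared with CD4+CD25- T cells from the same kind of node, on 6 of the 30 arrays of a study of regulatory and effector T cells. The members were chosen by array title: the 3 replicates of each sort whose titles name peripheral nodes and the BDC2.5 transgene. All 6 came from 4-week-old NOD mice carrying the BDC2.5 T cell receptor (TCR) transgene, a receptor for a pancreatic islet antigen on the diabetes-prone NOD background, so the CD25- cells carried the transgene too. No treatment is given for these mice, and nothing in the labels says whether the replicates came from separate animals or pools, and the p-values therefore cover only the variation among these arrays. The tissue entry of all 6 arrays reads mesenteric node, against both title and source name, and the titles were followed. The other arrays used here were 5 CD25+ and 3 CD25- arrays of mesenteric nodes of 4-week-old BDC2.5 mice, and 3 Treg (CD4+CD25+CD69-) and 5 Teff (CD4+, CD25 low or negative) arrays from the pancreas of BDC2.5 NOD mice given rat IgG, whose labels give no age. RNA of the sorted cells was hybridized to one-colour Affymetrix MG-U74Av2 arrays, and every level below is a log2 intensity.

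CD25 is the alpha chain of the interleukin-2 (IL-2) receptor. In mice that have not been immunized, most CD4+ T cells that carry it at high level are regulatory T cells (Treg cells), which depend on the transcription factor Foxp3 and on IL-2 and restrain other T cells. IL-2 acts on them through the kinases JAK1 and JAK3 and the transcription factor STAT5, which switches on feedback inhibitors of the SOCS family. The CD25- gate holds mainly conventional naive and memory helper cells. Foxp3 had no probe set that named 1 gene alone and is not reported.

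The 6 arrays had medians of 25.3 to 27.1 intensity units. CD25+ replicates 2 and 3 correlated with each other at r = 0.982 across probe sets, and the 3 CD25- arrays at 0.985 to 0.989. CD25+ replicate 1 stood apart: it correlated with the other CD25+ arrays at 0.973 and 0.961, and with the CD25- arrays at 0.968 to 0.976. A yardstick was the set of 579 probe sets called higher and 935 called lower in CD25+ than in CD25- cells of mesenteric nodes. Those differences used mesenteric arrays alone. The spread behind the calls was estimated over all 14 node arrays, the peripheral ones included. Over the higher ones the median difference from the peripheral CD25- arrays was 0.22 in CD25+ replicate 1, 0.50 in replicate 2 and 0.60 in replicate 3. Over the lower ones it was -0.51 in replicate 1, -0.92 in replicate 2 and -0.86 in replicate 3. Replicate 1 therefore lay between the CD25- arrays and its own group on this scale, and results that rest on it are given with and without it. The log2 3'/5' signal ratio of the actin control, a sign of RNA quality, was 3.30, 2.76 and 3.01 in CD25+ arrays and 2.70, 2.60 and 2.32 in CD25- arrays. The CD25+ values were all higher, by 0.48 on average (two-sided p = 0.1 by exact permutation, which 3 against 3 arrays cannot go below; 0.2 after Benjamini-Hochberg adjustment over 2 controls). The Gapdh ratio was 3.38 ± 0.16 in CD25+ and 3.50 ± 0.34 in CD25- arrays (SD, n = 3 each; exact permutation p = 0.7).

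**Figure D1:**
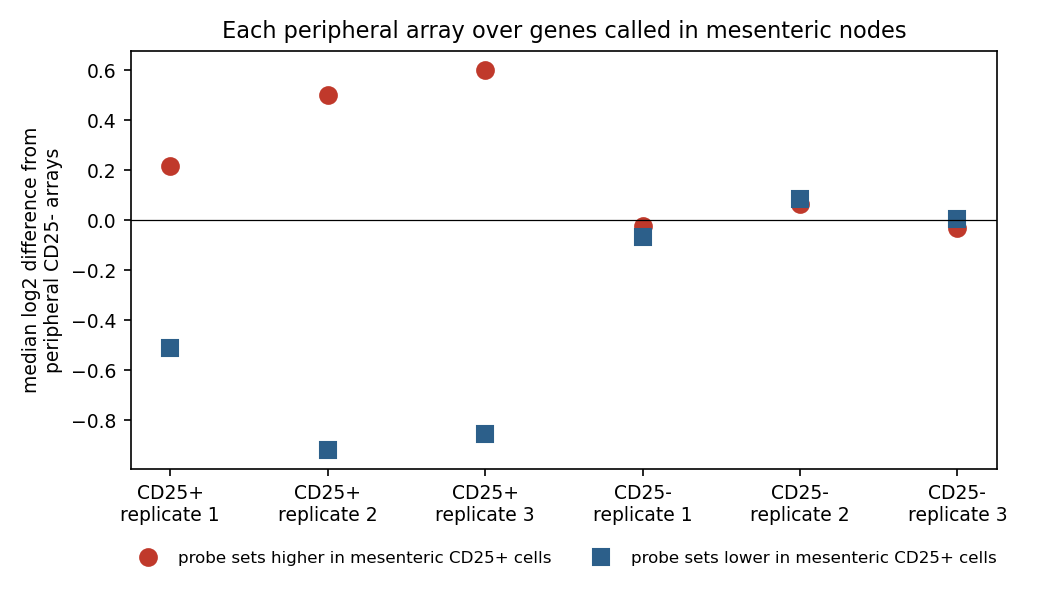
Median log2 difference of each peripheral array (x axis) from the peripheral CD25- arrays (y axis; each CD25- array is set against the other CD25- arrays), over the 579 probe sets higher (circles) and the 935 lower (squares) in mesenteric CD25+ cells. CD25+ replicate 1, at 0.22 and -0.51, lies closer to 0 than CD25+ replicates 2 and 3, and the CD25- arrays lie near 0.

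Of 12422 probe sets, 955 (7.69%) differed between CD25+ and CD25- cells at an adjusted p under 0.05 (limma, with Benjamini-Hochberg adjustment over all probe sets). The calls leaned to lower values: 223 (1.8%) were higher in CD25+ cells and 732 (5.89%) were lower. A difference of at least 1 on the log2 scale accompanied 350 of the calls, 80 of them higher and 270 lower. With 1 probe set for each of 8251 named genes, 764 genes were called (9.26%), 168 higher (2.04%) and 596 lower (7.22%). Values of the groups did not overlap for 20.4% of all probe sets. The median difference over all probe sets was 0.05. CD25+ replicate 1 decided much of the split: without it 1462 probe sets were called (11.8%), 552 higher (4.44%) and 910 lower (7.33%), and 865 of the 955 were among them. Leaving out CD25+ replicate 2, CD25- replicate 2 or CD25- replicate 3 reduced the count to 531, 546 and 597. With the actin ratio as a covariate 267 probe sets passed (58 higher and 209 lower), 251 of them among the 955. The median SE of the 955 probe sets was then 0.24, against 0.18 without the covariate. Their differences kept a median of 103.89% of their size for the higher and 100.4% for the lower ones. In numbers of genes, 424 were higher and 722 lower without CD25+ replicate 1, and 42 were higher and 175 lower with the covariate. Of the called genes described below, Cd4 (-0.35), Ahr, Hspd1 and Hsph1 (-0.62) had a smaller difference by over 1.5 times with the covariate, and Tnfrsf1b a larger one (1.11). The part of RNA quality in the calls that were lost was not tested.

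**Figure D2:**
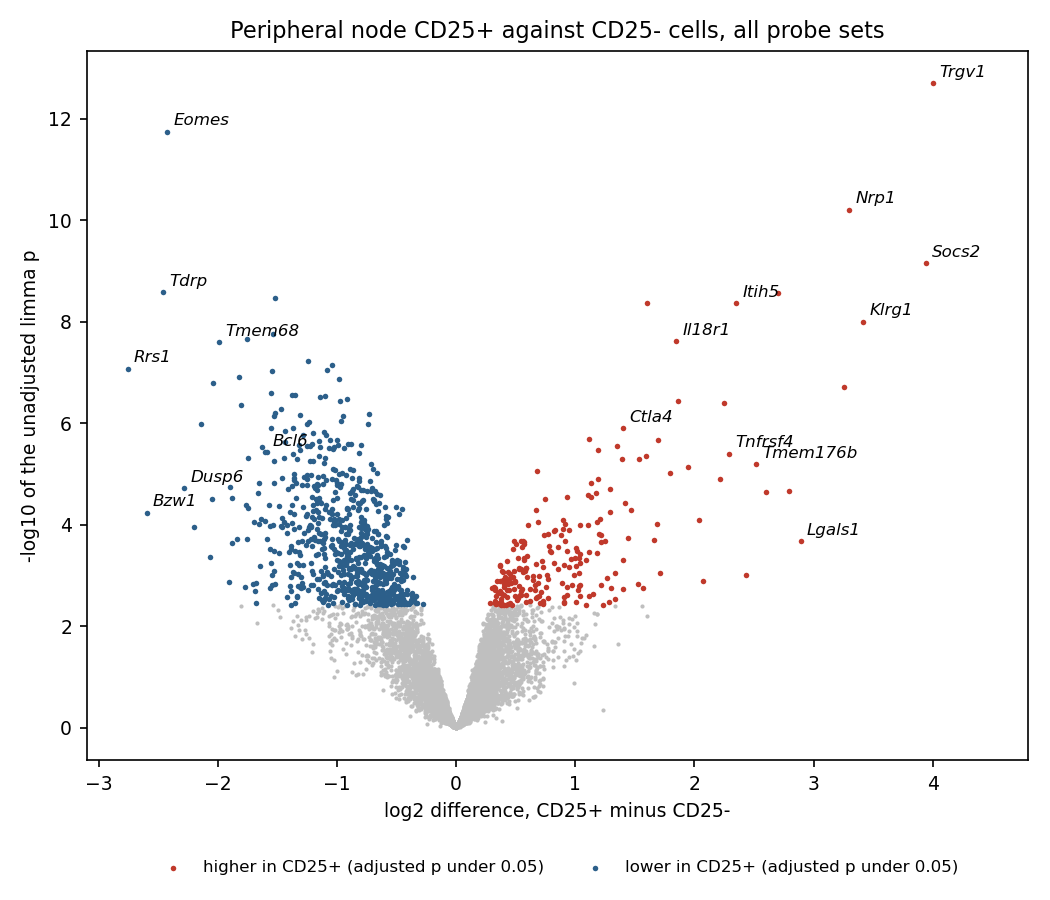
Log2 difference of CD25+ minus CD25- cells (x axis) against -log10 of the unadjusted limma p (y axis) for 12422 probe sets. Red points are the 223 called higher and blue points the 732 called lower in CD25+ cells, and the labelled genes are described in the text.

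The gene used for the sort followed it. Il2ra, which encodes CD25, read 5.32, 5.42 and 5.60 in CD25+ cells and 4.29, 4.00 and 3.99 in CD25- cells. Every CD25+ value lay above every CD25- value, with a difference of 1.35 ± 0.18 (SE), which checks the labels and is no finding. Cd4, the marker shared by both sorts, was lower in CD25+ cells, at 5.98, 6.29 and 6.43 against 6.75, 6.70 and 6.86 in CD25- cells (-0.54 ± 0.12, adjusted p = 0.0137). Without CD25- replicate 3 the adjusted p of Cd4 was 0.0612. The other 10 measured T cell markers, Cd3d, Cd3e, Cd3g, Cd247 and Thy1 among them, did not pass the test. Of the 11 T cell markers, 3 were higher (Cd2, Cd5 and Ptprcap) and Cd4 was lower without CD25+ replicate 1. With the actin covariate Cd4 did not pass (adjusted p = 0.359).

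Many genes of the CD25+ regulatory signature were higher in the CD25+ cells. Of 26 measured members of a list of such genes, 12 were higher, 0 were lower and 14 did not pass, against 2.04% of all genes called higher, and the list's median difference was 0.44 against 0.06 over all genes. The list holds Il2ra, the sort gene, and was chosen with earlier results of these data known, so its count is no independent support. Counts of 12 and 0 also came without CD25+ replicate 1, and with the actin ratio as a covariate 8 were higher and 0 lower. Socs2, a feedback inhibitor of cytokine receptors, had the widest gap of the list, with 8.84, 8.75 and 8.84 in CD25+ cells and 4.97, 4.88 and 4.77 in CD25- cells. The replicates were nearly level within each sort and the sorts stood far apart, a 15.3-fold difference (3.94 ± 0.26, adjusted p = 2.2e-06). Nrp1, the coreceptor neuropilin-1 that marks Treg cells of thymic origin, read 7.88, 8.23 and 7.90 in CD25+ cells against 4.71, 4.93 and 4.47 in CD25- cells (9.84-fold, adjusted p = 2.56e-07). Another probe set of Nrp1 gave 2.60 (adjusted p = 0.00179). CD25+ replicate 1, which stood apart over the array, was as high as its group for both genes. Klrg1, an inhibitory receptor for cadherins found on differentiated T cells, was 7.14, 7.40 and 8.34 in CD25+ cells against 4.40, 4.30 and 3.93 in CD25- cells (10.7-fold, 3.42 ± 0.28, adjusted p = 1.23e-05).

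Receptors of the signature followed. Ctla4, which competes with CD28 for its ligands, read 7.17, 7.02 and 7.02 in CD25+ cells and 5.38, 5.61 and 6.01 in CD25- cells (1.40 ± 0.17, adjusted p = 0.000333). Gpr83, a receptor of the G protein-coupled class, read 5.12, 4.59 and 5.64 in CD25+ cells and 2.78, 2.98 and 2.93 in CD25- cells (2.22 ± 0.33, adjusted p = 0.00132). The CD25- arrays were near the bottom of the scale there, and the CD25+ arrays were spread over 1 log2 unit. Tnfrsf4 (OX40) read 8.17, 8.91 and 9.65 in CD25+ cells against 6.76, 6.79 and 6.31 in CD25- cells (2.29 ± 0.31, adjusted p = 0.000619). Tnfrsf18 (GITR) read 8.65, 9.18 and 9.42 in CD25+ cells against 7.59, 8.18 and 7.60 in CD25- cells (1.29 ± 0.23, adjusted p = 0.0032). Both are costimulatory members of the TNF receptor family, and CD25+ replicate 1 was the lowest of its sort for each. Entpd1 (CD39), which breaks down extracellular ATP, differed by 0.69 ± 0.13 (adjusted p = 0.00426), and Fgl2, a secreted fibrinogen-like protein, by 1.20 ± 0.22 (adjusted p = 0.00394) although another Fgl2 probe set gave -0.03. With the actin covariate Gpr83 (0.0605) and Fgl2 (0.169) did not pass.

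Calls of 2 further signature genes were lost when single arrays were left out. Itgae, the alpha chain of the integrin CD103 that binds E-cadherin, was 4.78, 4.49 and 6.35 in CD25+ cells against 3.77, 3.68 and 3.60 in CD25- cells (1.53 ± 0.39, adjusted p = 0.0265). CD25+ replicate 3 carried much of that value: without it the difference was 0.95 (adjusted p = 0.0535). Without CD25- replicate 1, 2 or 3 the adjusted p of Itgae was 0.0602, 0.0843 and 0.0821. Selp, the adhesion molecule P-selectin, differed by 0.41 ± 0.10 (adjusted p = 0.0212), with an adjusted p of 0.105 without CD25+ replicate 2 and 0.0584, 0.0753 and 0.055 without CD25- replicates 1, 2 and 3. With the actin covariate neither passed (0.324 for Itgae and 0.122 for Selp). Of the members that did not pass, the effector cytokine gene Il10 differed by 0.47 and the Helios gene Ikzf2 by 0.17.

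Beyond the signature, the largest rise among named genes was in Trgv1, a variable segment of the TCR gamma chain. It read 9.27, 9.14 and 9.59 in CD25+ cells and 5.11, 5.51 and 5.38 in CD25- cells, a 16-fold difference (4.00 ± 0.14, adjusted p = 2.45e-09). The segment Trgv4 read 4.25, 4.68 and 5.76 in CD25+ cells against 3.64, 2.89 and 3.18 in CD25- cells (1.66 ± 0.33, adjusted p = 0.0072; 0.175 with the actin covariate). Gamma segments resemble each other in sequence, so a probe set can read more than the segment it names. Of the 10 genes of a gamma-delta T cell marker list 3 were measured; Trgv1 passed, while Blk (0.55) and Sox13 (0.07) did not. The share of gamma-delta cells in the gates was not tested.

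Tmem176a and Tmem176b encode related membrane proteins found in dendritic and T cells. Tmem176b was 7.80, 8.68 and 7.90 in CD25+ cells against 5.80, 5.57 and 5.47 in CD25- cells (2.51 ± 0.36, adjusted p = 0.000836). Tmem176a was 6.05, 7.10 and 6.35 in CD25+ cells against 4.62, 4.41 and 4.36 in CD25- cells (2.04 ± 0.37, adjusted p = 0.00406; 0.0533 with the actin covariate). In both genes CD25+ replicate 2 was highest and replicate 1 lowest. The genes start head to head on mouse chromosome 6: in RefSeq on GRCm38.p6, Tmem176a starts at 48841483 on the plus strand and Tmem176b at 48841374 on the minus strand, among other starts. The promoter window of Tmem176a (250 bases before to 50 after the start, chr6:48841233-48841532, plus strand) is shown because it covers both of these starts.
Tmem176a: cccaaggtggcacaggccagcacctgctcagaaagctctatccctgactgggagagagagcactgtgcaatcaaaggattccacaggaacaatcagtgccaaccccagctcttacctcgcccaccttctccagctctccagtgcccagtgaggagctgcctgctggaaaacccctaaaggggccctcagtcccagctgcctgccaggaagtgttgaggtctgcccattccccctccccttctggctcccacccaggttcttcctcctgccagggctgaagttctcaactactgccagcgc

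Itih5, a hyaluronan-associated protein of the inter-alpha-trypsin inhibitor family, read 6.41, 6.01 and 6.69 in CD25+ cells against 3.93, 4.09 and 4.03 in CD25- cells (2.35 ± 0.18, adjusted p = 5.94e-06), while another of its probe sets gave -0.11. The inhibitor of transcription factors Mdfic read 7.62, 6.89 and 6.74 in CD25+ cells against 5.67, 5.54 and 5.25 in CD25- cells (1.59 ± 0.22, adjusted p = 0.000679). CD25+ replicate 1 was the highest array for Mdfic.

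The X-inactivation RNA Xist was among the 20 largest rises. It read 7.42, 7.41 and 7.99 in CD25+ cells and 4.72, 5.42 and 6.47 in CD25- cells (2.07 ± 0.51, adjusted p = 0.0242), with the CD25- arrays spread over almost 2 log2 units. Its adjusted p lay between 0.061 and 0.0947 without CD25+ replicate 2 or 3 or CD25- replicate 1 or 2, and was 0.196 with the actin covariate. The labels give no sex. Of Y-linked genes, Eif2s3y read 6.20, 5.28 and 4.47 in CD25+ cells against 6.67, 6.77 and 6.37 in CD25- cells (-1.29, adjusted p = 0.132). Eif2s3y was lower without CD25+ replicate 1 (-1.73, adjusted p = 0.0313). The genes Kdm5d (-0.10) and Uty (0.07), also Y-linked, were dim in both sorts and did not pass. The sex of the animals behind each sort and its part in other differences was not tested.

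**Figure D3:**
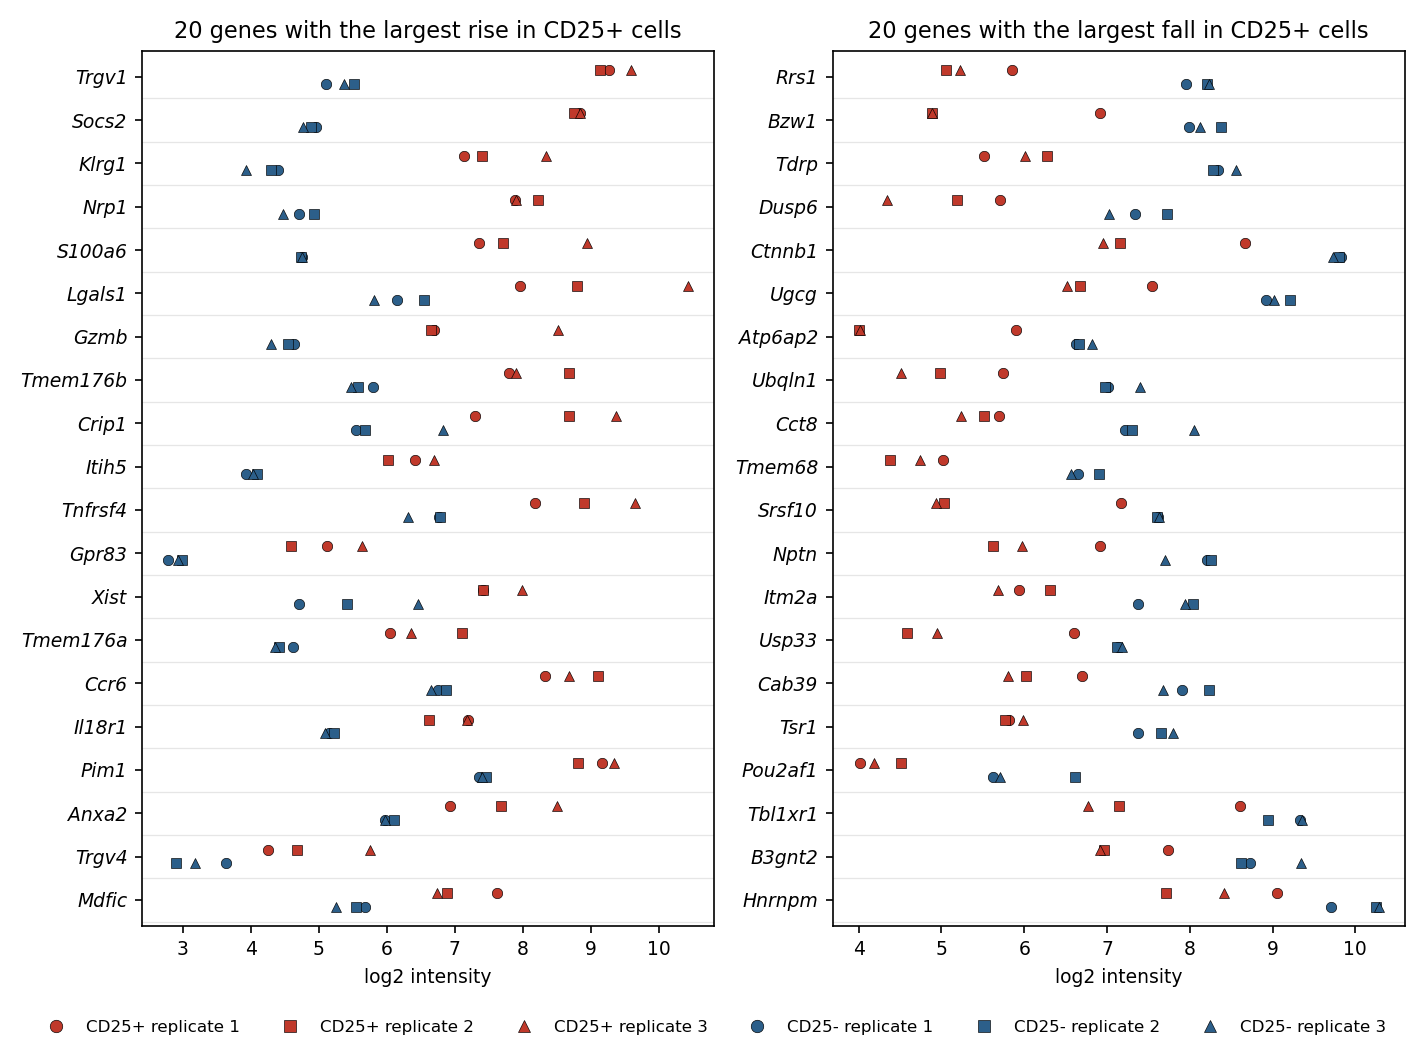
Log2 intensity (x axis) by array for the 20 largest rises (left) and 20 largest falls (right), with CD25+ arrays in red above CD25- arrays in blue and circles, squares and triangles for replicates 1, 2 and 3. The groups do not overlap for any of these genes, which their choice required, and for several lower genes such as Srsf10 CD25+ replicate 1 lies next to the CD25- arrays.

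Of 23 measured cytokine receptor genes 6 were higher, 1 was lower and 16 did not pass, against 2.04% of all genes called higher and 7.22% lower. Without CD25+ replicate 1 the counts were 5 and 1, and with the actin covariate 2 and 0. The calls that the covariate ended were those of Il6ra (0.0605), Il1r2 (0.0953), Ifngr1 (0.195), Il10rb (0.0697) and Il6st (0.201). Il18r1, the ligand-binding chain of the IL-18 receptor, read 7.20, 6.61 and 7.19 in CD25+ cells against 5.15, 5.22 and 5.10 in CD25- cells (1.84 ± 0.16, adjusted p = 2.25e-05). Il6ra, the IL-6 receptor alpha chain, was 6.66, 7.17 and 6.87 in CD25+ cells against 5.92, 5.71 and 5.80 in CD25- cells (1.09 ± 0.24, adjusted p = 0.0131). Il6st, which encodes the signalling chain gp130 that the IL-6 receptor shares with others, went the other way, with 5.26, 5.88 and 5.88 in CD25+ cells against 6.31, 6.54 and 6.86 in CD25- cells (-0.90 ± 0.17, adjusted p = 0.00517). Another probe set of Il6st, dim on all arrays, gave -0.09. Il1r2, the decoy receptor for IL-1, differed by 0.86 ± 0.20 (adjusted p = 0.0169), Ifngr1 by 0.59 ± 0.13 (adjusted p = 0.0114) and Il10rb by 0.73 ± 0.21 (adjusted p = 0.0452). Calls of Il6ra, Il1r2, Ifngr1 and Il10rb were lost when single arrays were left out. Il6ra missed the threshold without CD25+ replicate 2 (0.0676) or CD25- replicate 2 (0.0568), and Ifngr1 without CD25- replicate 2 (0.062). Il1r2 had an adjusted p of 0.0594 to 0.0813 without CD25+ replicate 2 or 3 or CD25- replicate 1 or 3. Il10rb had one of 0.0723 to 0.156 without CD25+ replicate 1 or 2 or CD25- replicate 1 or 2. Il7r, the IL-7 receptor that conventional T cells carry at higher level than Treg cells, differed by -0.37 ± 0.24 (adjusted p = 0.43).

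Downstream of these receptors, a pair of feedback inhibitors was higher and a kinase and a STAT factor lower. Of 17 measured genes of the JAK, STAT and SOCS families Socs2 and Cish were higher, and Jak2 and Stat4 were lower, against 2.04% of all genes called higher and 7.22% lower. Cish, a STAT5-induced inhibitor related to Socs2, read 6.40, 6.83 and 7.14 in CD25+ cells against 6.09, 5.76 and 5.84 in CD25- cells (0.89 ± 0.16, adjusted p = 0.00405; 0.0599 with the actin covariate). Jak2 read 6.19, 6.10 and 6.19 in CD25+ cells against 7.19, 7.35 and 6.96 in CD25- cells (2.01-fold lower, adjusted p = 0.00135), and a dimmer probe set gave -0.15. Stat4, which transmits IL-12 signals, read 5.84, 5.51 and 5.83 in CD25+ cells against 6.62, 6.90 and 7.16 in CD25- cells (-1.17 ± 0.19, adjusted p = 0.00225). The sorts did not overlap for any of these 3 genes, but for Cish CD25+ replicate 1 (6.40) lay near CD25- replicate 1 (6.09). The kinase Pim1, a STAT5 target that supports survival, read 9.17, 8.81 and 9.34 in CD25+ cells against 7.36, 7.46 and 7.40 in CD25- cells (1.70 ± 0.22, adjusted p = 0.000475), although another Pim1 probe set gave 0.15.

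The letters TTCNNNGAA, a palindrome and so the same on both strands, make up the core that STAT5 binds, and they were searched for in promoter windows from RefSeq on GRCm38.p6. These windows of 300 bases run from 250 before to 50 after each annotated start. Over 27025 genes with a window, 9.55% held a match. Among the 20 genes with the largest rise, 4 of the 15 with a window held one (Ccr6, Gzmb, Il18r1 and Mdfic), and among the 20 with the largest fall 1 of 16 did (Ubqln1). Windows of 3 genes described here that hold matches are shown, with the matches in capitals. Cish has 2 next to each other near its start (chr9:107296409-107296708, plus strand), Tnfrsf18 has 1 (chr4:156026072-156026371, plus strand) and Ccr6 has 2 (chr17:8235793-8236092, plus strand). The window of another annotated start of Ccr6 (chr17:8242276-8242575) holds 0. A match describes the letters and not a binding site.
Cish: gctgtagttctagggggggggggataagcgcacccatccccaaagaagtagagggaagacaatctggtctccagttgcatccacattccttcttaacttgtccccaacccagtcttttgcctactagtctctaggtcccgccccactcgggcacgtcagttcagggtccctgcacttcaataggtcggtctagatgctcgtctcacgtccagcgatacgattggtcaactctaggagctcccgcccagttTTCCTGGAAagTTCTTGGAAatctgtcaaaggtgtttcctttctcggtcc
Tnfrsf18: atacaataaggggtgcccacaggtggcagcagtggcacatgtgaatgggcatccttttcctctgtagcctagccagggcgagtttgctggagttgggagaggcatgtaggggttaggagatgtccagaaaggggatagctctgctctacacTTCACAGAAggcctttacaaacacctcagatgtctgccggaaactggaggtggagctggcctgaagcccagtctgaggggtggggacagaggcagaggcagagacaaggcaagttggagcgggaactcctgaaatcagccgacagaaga
Ccr6: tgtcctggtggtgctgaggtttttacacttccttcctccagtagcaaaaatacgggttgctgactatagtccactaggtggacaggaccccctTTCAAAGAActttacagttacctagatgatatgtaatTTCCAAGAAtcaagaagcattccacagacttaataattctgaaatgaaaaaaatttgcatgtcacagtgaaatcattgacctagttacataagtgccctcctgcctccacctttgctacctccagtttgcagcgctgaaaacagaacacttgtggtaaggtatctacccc

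Of 14 measured chemokine receptors, which guide T cells into tissues, 3 were higher and 0 lower, against 2.04% of all genes called higher. With the actin covariate Ccr6 alone passed, and the adjusted p was 0.271 for Ccr2 and 0.289 for Cxcr3. Ccr6, the receptor for CCL20, read 8.33, 9.10 and 8.68 in CD25+ cells against 6.75, 6.87 and 6.64 in CD25- cells (1.95 ± 0.28, adjusted p = 0.000951). Ccr2, the receptor for CCL2, read 5.10, 5.02 and 5.56 in CD25+ cells against 4.13, 4.38 and 4.16 in CD25- cells (1.00 ± 0.21, adjusted p = 0.00881). The sorts did not overlap for either. Cxcr3, a receptor for interferon-induced chemokines, differed by 0.89 ± 0.22 (adjusted p = 0.0259), with an adjusted p of 0.0617 to 0.101 without CD25+ replicate 2 or 3 or CD25- replicate 1 or 3. Ccr7, which guides T cells into nodes, differed by -0.58 ± 0.27 (adjusted p = 0.241). Among 15 measured genes of naive cells and node homing, Itm2a and Myb were lower, 0 were higher and the median difference was -0.19, against 7.22% of all genes called lower. Of the 15, 1 was higher and 2 were lower without CD25+ replicate 1. Itm2a, a membrane protein, read 5.94, 6.31 and 5.68 in CD25+ cells against 7.37, 8.04 and 7.94 in CD25- cells (-1.81 ± 0.20, adjusted p = 0.000166). Myb, a transcription factor of early T cells, read 6.79, 6.98 and 7.82 in CD25+ cells against 8.32, 9.02 and 9.16 in CD25- cells (-1.64 ± 0.29, adjusted p = 0.00392; 0.119 with the actin covariate), while a dim Myb probe set gave 0.02.

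Some genes for adhesion, calcium-binding proteins and granule proteins were higher. Of 25 measured integrin and adhesion genes 5 were higher and 0 lower, against 2.04% of all genes called higher (7 and 0 without CD25+ replicate 1, 1 and 0 with the actin covariate): Itgae and Selp, described above, with Selplg, Cd48 and Itgav. Selplg, the P-selectin ligand PSGL-1, read 9.29, 10.02 and 10.15 in CD25+ cells against 8.94 ± 0.10 in CD25- cells (SD, n = 3; limma difference 0.88 ± 0.17, adjusted p = 0.00606). Cd48, a ligand of the adhesion molecule CD2, differed by 1.20 ± 0.23 (adjusted p = 0.00592). Both were lowest in CD25+ replicate 1 among the CD25+ arrays. Itgav, an integrin alpha chain, differed by 0.72 ± 0.16 (adjusted p = 0.0134; 0.0606 without CD25- replicate 3), and 2 dimmer Itgav probe sets gave 0.27 and 0.20. Of 17 measured S100, galectin, annexin and related genes 6 were higher and 1 was lower, against 2.04% of all genes called higher, with a list median of 0.38, and without CD25+ replicate 1 the counts were 7 and 1 and the median 0.53. The fit with the actin covariate gave 1 higher (S100a6) and 0 lower, with an adjusted p of 0.0964 (Anxa2) to 0.48 (S100a4) for the others. S100a6, a calcium-binding protein, read 7.35, 7.71 and 8.94 in CD25+ cells and was level in CD25- cells at 4.75, 4.74 and 4.75 (3.26 ± 0.34, adjusted p = 0.000104). Lgals1, the secreted lectin galectin-1, read 7.95, 8.80 and 10.43 in CD25+ cells against 6.16, 6.55 and 5.81 in CD25- cells (2.89 ± 0.58, adjusted p = 0.00727). Anxa2, a membrane-binding annexin, read 6.93, 7.69 and 8.50 in CD25+ cells against 5.98, 6.11 and 5.98 in CD25- cells (1.69 ± 0.31, adjusted p = 0.0045). For these genes CD25+ replicate 3 was highest and replicate 1 lowest. Anxa5 was the lower one (-0.94 ± 0.20, adjusted p = 0.00898). S100a10 differed by 1.13 ± 0.19 (adjusted p = 0.00211), and its dimmer probe set gave 0.29. Crip1, a small LIM-domain protein, differed by 2.43 ± 0.58 (adjusted p = 0.02) and S100a4 by 1.57 ± 0.40 (adjusted p = 0.0297). Without single arrays the adjusted p of Crip1 was 0.074 to 0.0859 (CD25+ replicates 2 and 3, CD25- replicates 1 and 2). That of S100a4 was 0.0703 to 0.1 (CD25+ replicates 2 and 3, and each CD25- replicate).

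Of 16 measured genes of cytotoxic granules and killer lectin receptors 5 were higher and 1 was lower, against 2.04% of all genes called higher and 7.22% lower. The counts were 6 and 2 without CD25+ replicate 1, and with the actin covariate 2 and 0. The covariate ended the calls of Gzmb (0.0677), Ctsw (0.0647), Cst7 (0.474) and Klrd1 (0.202). Gzmb, the granule protease granzyme B, read 6.69, 6.65 and 8.52 in CD25+ cells against 4.63, 4.54 and 4.29 in CD25- cells (6.95-fold, 2.80 ± 0.44, adjusted p = 0.00172). CD25+ replicate 3 was the highest by almost 2 log2 units. The other higher members were Klrg1, Gzmc (0.47, adjusted p = 0.00901), Ctsw (0.82, adjusted p = 0.0143) and Cst7 (0.93, adjusted p = 0.0371). Gzmc was dim in both sorts, at means of 4.12 and 3.64, and its dimmer probe set gave 0.15. Cst7, an inhibitor of cysteine proteases, was 0.59 (adjusted p = 0.0953) without CD25+ replicate 3, and its adjusted p was 0.08 to 0.121 without each CD25- replicate. Ctsw, a cysteine protease, had an adjusted p of 0.0515 to 0.0644 without CD25+ replicate 2 or 3 or CD25- replicate 3. Klrd1, the killer receptor subunit CD94, fell by 0.75 on the log2 scale (adjusted p = 0.02; 0.0609 to 0.0927 without CD25+ replicate 3 or CD25- replicate 2 or 3).

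Among costimulatory and TNF receptor genes not yet named, Tnfrsf1b (TNF receptor 2) differed by 0.73 ± 0.17 (adjusted p = 0.0159) and Cd200, a ligand that restrains myeloid cells, by -0.84 ± 0.21 (adjusted p = 0.0255). Over the lists, 3 of 17 measured costimulatory and coinhibitory genes were higher and 1 was lower, and 3 of 16 TNF receptor family genes were higher and 0 lower. Without CD25+ replicate 1 these counts were 6 and 1, and 4 and 1, and with the actin covariate 3 and 0 for both lists. Over all genes 2.04% were called higher and 7.22% lower. The adjusted p with the covariate was 0.105 for Cd200 and 0.0869 for Tnfsf11, described next. Without CD25+ replicate 2 or 3 or CD25- replicate 1 or 3, the adjusted p was 0.0516 to 0.0804 for Tnfrsf1b and 0.053 to 0.114 for Cd200. Of 22 measured cytokine genes, Csf1 was higher (0.41, adjusted p = 0.0233) and Tnfsf11, which encodes RANK ligand, was lower (-0.88, adjusted p = 0.0227). Csf1 missed the threshold without CD25+ replicate 2 or CD25- replicate 1 or 2 (0.0725 to 0.103), and Tnfsf11 without CD25+ replicate 2 or 3 or CD25- replicate 2 or 3 (0.0702 to 0.111).

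Of 18 measured helper lineage factors 3 were higher and 3 lower, against 2.04% and 7.22% of all genes. The counts were 4 and 3 without CD25+ replicate 1 and 0 and 3 with the actin covariate. Ahr, the aryl hydrocarbon receptor, read 5.29, 4.59 and 5.34 in CD25+ cells against 4.06, 3.95 and 3.86 in CD25- cells (1.12 ± 0.24, adjusted p = 0.01). With the actin covariate the difference of Ahr was 0.48 (adjusted p = 0.401). Bcl6, the factor of follicular helper cells, read 4.52, 5.02 and 4.60 in CD25+ cells against 6.69, 6.19 and 6.02 in CD25- cells (-1.59 ± 0.21, adjusted p = 0.000609). The octamer coactivator Pou2af1, known from B cells and follicular helper cells, read 4.01, 4.51 and 4.18 in CD25+ cells against 5.62, 6.61 and 5.71 in CD25- cells (-1.74 ± 0.24, adjusted p = 0.000715). CD25- cells were above CD25+ cells on every array for Bcl6 and this Pou2af1 probe set, while a dim Pou2af1 probe set gave 0.03. Eomes, the T-box factor of memory and cytotoxic T cells, was lower by both of its probe sets. The brighter one gave 4.38, 4.42 and 4.40 in CD25+ cells against 5.96, 5.88 and 5.10 in CD25- cells (-1.25 ± 0.19, adjusted p = 0.00121). Gata3, the factor of type 2 helper cells, differed by 0.62 ± 0.16 (adjusted p = 0.0309), and Id2, an inhibitor of E proteins, by 1.22 ± 0.31 (adjusted p = 0.0276). Gata3 had an adjusted p of 0.0515 to 0.103 without CD25+ replicate 2 or 3 or CD25- replicate 1 or 3 (0.335 with the actin covariate), and Id2 one of 0.0667 to 0.106 without CD25+ replicate 2 or 3 or CD25- replicate 1 or 2 (0.195 with the covariate).

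Of 22 measured immediate early and activation genes 3 were lower, 0 were higher and 19 did not pass, against 7.22% of all genes called lower. Without CD25+ replicate 1, 4 were lower, and with the actin covariate 3 were. Egr2, a transcription factor induced by TCR and calcium signals, read 7.31, 6.72 and 6.65 in CD25+ cells against 8.34, 8.71 and 8.29 in CD25- cells (-1.55 ± 0.19, adjusted p = 0.000333). Irf4, induced in proportion to TCR signal strength, read 7.17, 7.43 and 7.20 in CD25+ cells against 8.66, 9.02 and 8.52 in CD25- cells (-1.46 ± 0.22, adjusted p = 0.00131). Dusp6, the ERK phosphatase made as ERK feedback, read 5.71, 5.19 and 4.34 in CD25+ cells against 7.34, 7.72 and 7.03 in CD25- cells (-2.28 ± 0.36, adjusted p = 0.00163). All 3 genes were lower on every CD25+ array, and a dim Dusp6 probe set gave 0.05. Fos (-1.37) and Egr1 (-1.11) did not pass. Of 20 measured genes of the TCR complex and its proximal signalling, Cd4 and Ptpn22 were lower and 0 were higher, near the 7.22% of all genes called lower. Of the 20, 3 were lower and 1 was higher without CD25+ replicate 1. Ptpn22, a phosphatase that damps TCR signals, read 7.68, 7.12 and 7.67 in CD25+ cells against 8.70, 8.82 and 8.70 in CD25- cells (-1.25 ± 0.15, adjusted p = 0.000294), while a probe set near the bottom of the scale gave -0.02. Rgs16, a regulator of G protein signalling, differed by -0.46 ± 0.13 (adjusted p = 0.0389), with an adjusted p of 0.062 to 0.165 without CD25+ replicate 3 or any single CD25- replicate, and of 0.257 with the actin covariate. It and Dusp6 were the 2 lower genes of 13 measured RGS, DUSP and sprouty genes. None of the 13 measured NF-kB family genes passed in the limma fit, 2 had an unadjusted p under 0.05, and 1 was lower without CD25+ replicate 1.

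Of 23 measured TGF-beta and Smad genes Smad1 and Smad2 were lower and 0 were higher, near the 7.22% of all genes called lower. Smad1, which transmits signals of bone morphogenetic proteins, read 7.34, 6.44 and 6.28 in CD25+ cells against 8.20, 8.23 and 8.21 in CD25- cells (-1.53 ± 0.23, adjusted p = 0.00146), and another probe set gave -1.89 (adjusted p = 0.00159). Smad2, which transmits TGF-beta signals, differed by -1.07 ± 0.26 (adjusted p = 0.0198), and had an adjusted p of 0.0625 to 0.0741 without CD25+ replicate 3 or CD25- replicate 1 or 3 and of 0.256 with the actin covariate.

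The largest fall among named genes was in Rrs1. Rrs1, a factor of ribosome assembly, read 5.85, 5.05 and 5.22 in CD25+ cells against 7.96, 8.20 and 8.23 in CD25- cells, 6.75-fold lower (-2.76 ± 0.27, adjusted p = 6.07e-05). Tsr1, also of ribosome assembly, read 5.82, 5.76 and 5.99 in CD25+ cells against 7.37, 7.65 and 7.80 in CD25- cells (-1.75 ± 0.15, adjusted p = 2.25e-05). Of 24 measured cytosolic ribosomal protein genes 0 were called in either direction by limma, with 2 at an unadjusted p under 0.05 and a median of 0.17, and 2 were higher without CD25+ replicate 1. Tdrp read 5.52, 6.27 and 6.01 in CD25+ cells against 8.34, 8.28 and 8.56 in CD25- cells (-2.46 ± 0.18, adjusted p = 5.54e-06), and its dimmer probe set gave 0.23. Ugcg, which makes glucosylceramide, read 7.54, 6.68 and 6.52 in CD25+ cells against 8.92, 9.21 and 9.02 in CD25- cells (-2.14 ± 0.26, adjusted p = 0.000294), and its dimmer probe set gave -0.27. For Tdrp CD25+ replicate 1 was the lowest array of all, and for Ugcg it was the nearest to the CD25- arrays.

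That nearness was stronger in a further set of these genes. Ctnnb1, which encodes beta-catenin, read 8.66, 7.16 and 6.95 in CD25+ cells against 9.83, 9.80 and 9.73 in CD25- cells (-2.20 ± 0.41, adjusted p = 0.00474). Bzw1, a regulator of translation, read 6.91, 4.89 and 4.88 in CD25+ cells against 7.99, 8.37 and 8.12 in CD25- cells (-2.60 ± 0.45, adjusted p = 0.00323). Srsf10, a splicing factor, read 7.17, 5.03 and 4.93 in CD25+ cells against 7.61, 7.60 and 7.63 in CD25- cells (-1.91 ± 0.48, adjusted p = 0.0254). The difference of CD25+ replicate 1 from the CD25- mean was 41.2%, 38% and 16.9% of that of CD25+ replicates 2 and 3 for these 3 genes. Without it the differences were -2.73 for Ctnnb1, -3.27 for Bzw1 and -2.63 for Srsf10. Calls of Srsf10, Usp33 (a deubiquitinase, -1.77), Tbl1xr1 (a nuclear receptor cofactor, -1.70), Hnrnpm (a splicing factor, -1.69) and Atp6ap2 (a proton pump accessory protein, -2.06) were lost when single arrays were left out. The arrays were CD25+ replicates 2 and 3 for all 5, each CD25- replicate for Srsf10, Usp33 and Tbl1xr1, and CD25- replicates 2 and 3 for Hnrnpm. The adjusted p was then 0.0649 to 0.123 for Srsf10, 0.0719 to 0.14 for Usp33, 0.0584 to 0.115 for Tbl1xr1, 0.0702 to 0.15 for Hnrnpm and 0.0509 to 0.0641 for Atp6ap2. The other large falls were Ubqln1 (-2.05), Cct8 (-2.04), Tmem68 (-1.99), Nptn (-1.88), Cab39 (-1.76) and B3gnt2 (-1.69). Dimmer probe sets of Ubqln1 and B3gnt2 gave -0.26 and -0.15. With the actin covariate Srsf10, Usp33, Tbl1xr1, Hnrnpm, Atp6ap2, Ubqln1, Cab39 and B3gnt2 did not pass, at an adjusted p between 0.0735 (Ubqln1) and 0.374 (Hnrnpm).

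Of 18 measured genes of heat shock and isolation stress 6 were lower and 0 were higher, against 7.22% of all genes called lower, with a median of -0.34. Hspd1, the mitochondrial chaperonin, read 8.98, 9.36 and 9.12 in CD25+ cells against 9.88, 10.31 and 10.32 in CD25- cells (-1.02 ± 0.16, adjusted p = 0.00177), and a dimmer probe set gave 0.03. Its partner Hspe1 read 7.50, 7.55 and 7.34 in CD25+ cells against 8.15, 8.55 and 8.56 in CD25- cells (-0.95 ± 0.14, adjusted p = 0.00116). Cct8, a subunit of the cytosolic chaperonin, read 5.69, 5.52 and 5.23 in CD25+ cells against 7.22, 7.30 and 8.05 in CD25- cells (-2.04 ± 0.21, adjusted p = 9.06e-05). CD25+ values lay below CD25- values on every array for all 3. The cochaperone Dnaja1 differed by -1.56 ± 0.29 (adjusted p = 0.00474) and Hsph1 by -0.93 ± 0.24 (adjusted p = 0.0316). The endoplasmic chaperone Hspa5 averaged 6.77 ± 0.49 in CD25+ cells and 7.77 ± 0.37 in CD25- cells (SD, n = 3 each; limma adjusted p = 0.0329). Without CD25+ replicate 1 the count was 4 lower, Hspa5 had an adjusted p of 0.085 and Hsph1 one of 0.0674. Without CD25+ replicate 2 or CD25- replicate 2 or 3 the adjusted p was 0.091 to 0.132 for Hspa5 and 0.061 to 0.128 for Hsph1, and without CD25+ replicate 3 it was 0.0666 for Hsph1. With the actin ratio as a covariate Cct8 alone passed, and the adjusted p lay between 0.0611 (Hspe1) and 0.498 (Hsph1) for the others. The difference of Hspd1 was then -0.61 (adjusted p = 0.089).

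Of 37 measured cell cycle genes 1 was higher and 1 lower, against 2.04% of all genes called higher and 7.22% lower. Of the 37, 13 had an unadjusted p under 0.05 in the limma fit, which 2585 of the 12422 probe sets had. Ccnb2, a mitotic cyclin, differed by 1.01 ± 0.28 (adjusted p = 0.0465; 0.0818 to 0.145 without any one of CD25+ replicates 2 and 3 and the CD25- replicates, and 0.342 with the actin covariate). Mcm4, part of the replicative helicase, read 6.07, 5.77 and 6.05 in CD25+ cells against 7.37, 7.26 and 7.68 in CD25- cells (-1.47 ± 0.17, adjusted p = 0.00019). The proliferation marker Mki67 (0.66) did not pass, nor did the helicase subunits Mcm2 (-0.29) and Mcm7 (-0.39). Of 21 measured BCL2 family and survival genes Pim1 was higher, and Birc2, an inhibitor of apoptosis, was lower (-0.92 ± 0.16, adjusted p = 0.00294), with -0.04 from a dim probe set. Interferon response genes gave 0 higher and 1 lower of 26, against the same shares over all genes, with a median of 0.31. The lower one was the GTPase Ifi47 (-0.52, adjusted p = 0.0421; 0.0745 to 0.151 without CD25+ replicate 2 or 3 or CD25- replicate 2 or 3, and 0.49 with the actin covariate). Without CD25+ replicate 1, 5 of the 26 were higher and 1 was lower, and the median was 0.46.

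Markers of other cell types did not pass for most lists. None of the 20 measured B cell markers, 22 macrophage and dendritic cell markers, 12 granulocyte and mast cell markers, 15 stromal and endothelial markers and 5 erythroid markers was called in the limma fit. At an unadjusted p under 0.05 there were 4 B cell, 2 macrophage and dendritic cell, 1 granulocyte and 0 stromal or erythroid markers. The mean over the B cell list was 5.27 to 5.83 on CD25+ arrays and 4.94 to 5.56 on CD25- arrays, and its largest differences were in the class II genes H2-Aa (1.36) and H2-Eb1 (1.04). Leaving out CD25+ replicate 1, 2 B cell markers were called higher. The macrophage list had means of 4.62 to 4.96 on CD25+ and 4.64 to 4.71 on CD25- arrays. Those of the erythroid list were 5.12 to 6.42 and 5.04 to 5.88. Of 8 measured CD8 and NK cell markers Eomes and Klrd1 were lower, against 7.22% of all genes called lower. The means of that list were 3.84 to 4.02 on CD25+ and 4.14 to 4.16 on CD25- arrays. In sorted bulk samples fewer cells of a type and less RNA per cell cannot be told apart, and the part of other cells in these results was not tested.

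**Figure D4:**
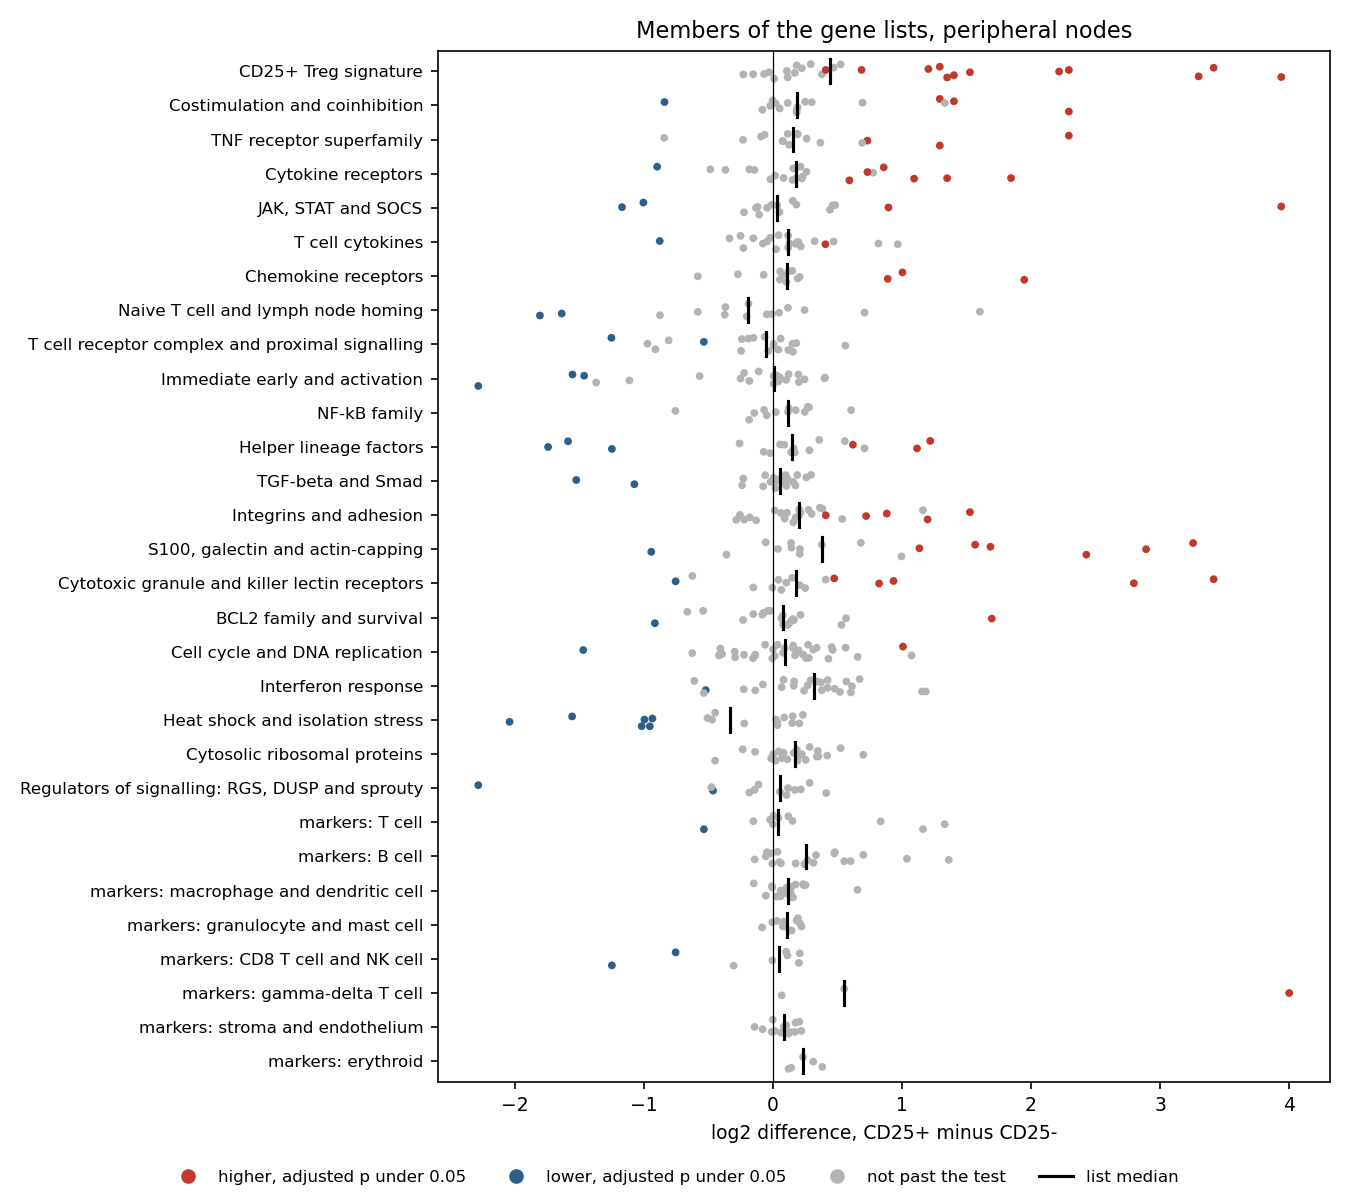
Log2 difference of CD25+ minus CD25- cells (x axis) for each measured member of 30 gene lists (rows), red where higher and blue where lower at an adjusted p under 0.05 and grey otherwise, with the list median as a black bar. The Treg signature holds 12 higher members and 0 lower, and the heat shock list 6 lower and 0 higher.

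Mesenteric nodes gave a further set of arrays for the same sorts, and the labels do not say whether the animals were others. There 1514 probe sets (12.2%) were called, 579 higher and 935 lower. The fit was shared by all 14 node arrays, so the calls of both sites rest on a common estimate of spread. Of the 955 peripheral calls 726 were also called in mesenteric nodes, all with the same sign, which is 76% of the peripheral and 48% of the mesenteric calls. The sign was the same for 98.4% of the 955 and for 73.6% of all probe sets. Differences of both sites correlated at r = 0.858 across the 12422 probe sets, which are not independent replicates, and at 0.886 without peripheral CD25+ replicate 1. All 20 of the genes with the largest peripheral rise passed in mesenteric nodes in the same direction, as did 19 of the 20 with the largest fall. The exception was B3gnt2 (-0.88, adjusted p = 0.0532). Mesenteric differences were 4.45 for Trgv1, 3.69 for Socs2, 3.64 for Nrp1 and -2.98 for Tdrp. One mesenteric CD25+ array, replicate 2, has a CD25- source name against its title. It correlated at 0.994 with mesenteric CD25+ replicate 1 and at 0.967 to 0.974 with the mesenteric CD25- arrays, and 909 peripheral probe sets were called without it.

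**Figure D5:**
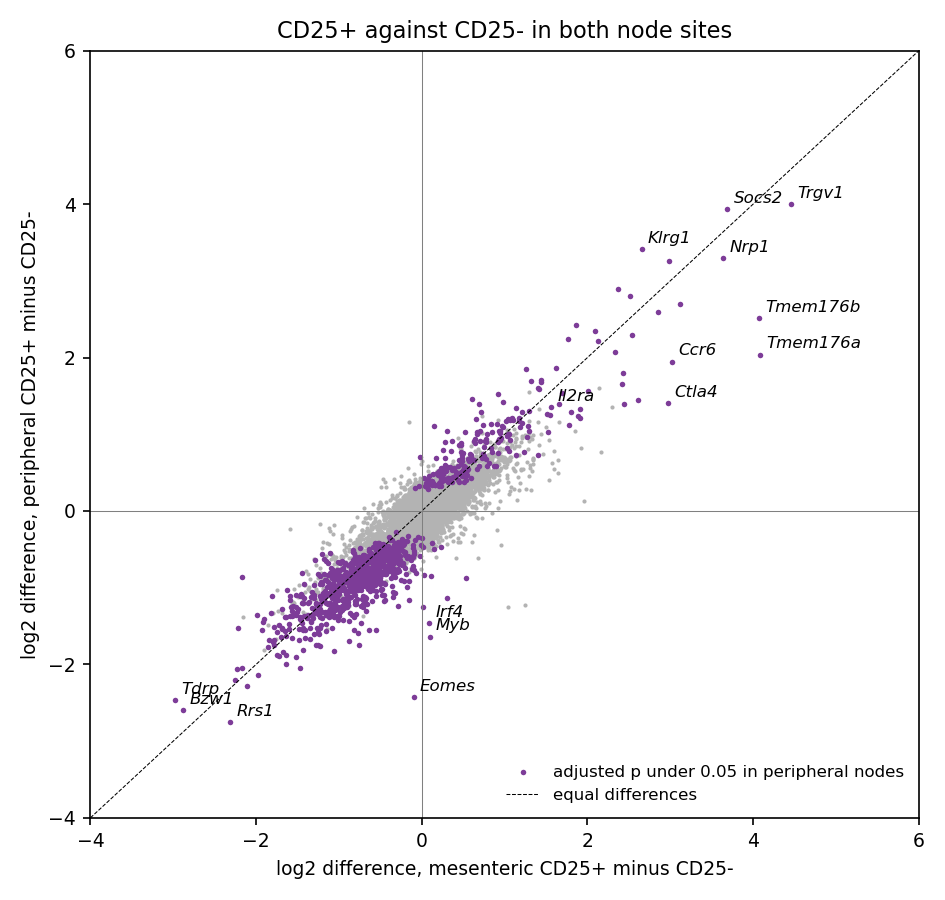
Log2 difference of CD25+ minus CD25- cells in mesenteric nodes (x axis) against that in peripheral nodes (y axis) for 12422 probe sets, purple where called in peripheral nodes, with a dashed line of equal differences. Most called probe sets lie near the line, and Eomes lies away from it at -0.10 and -2.42.

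The difference between the sites was tested as an interaction, and 1 of 12422 probe sets passed (0.00805%), against 382 at an unadjusted p under 0.05. It was the dimmer probe set of Eomes. In peripheral nodes it read 2.90, 3.27 and 3.31 in CD25+ cells against 5.63, 5.50 and 5.62 in CD25- cells (-2.42 ± 0.10, adjusted p = 1.1e-08). In mesenteric nodes it read 2.39 to 2.56 in CD25+ cells and 2.56, 2.60 and 2.59 in CD25- cells (-0.10 ± 0.09, adjusted p = 0.589). The peripheral CD25- arrays were thus the only high ones among the 14 node arrays. The interaction was -2.32 ± 0.14 (adjusted p = 1.93e-06), and the brighter Eomes probe set gave -1.26 (adjusted p = 0.322). Ctla4 was next in order of p, with a peripheral difference of 1.40, a mesenteric one of 2.98 and an interaction that did not pass (-1.57 ± 0.23, adjusted p = 0.0564). CD25+ cells had nearly equal Ctla4 levels, 7.02 to 7.17 in peripheral and 6.68 to 7.24 in mesenteric nodes, whereas CD25- cells read 5.38 to 6.01 in peripheral and 3.77 to 4.12 in mesenteric nodes. Irf4 had a like layout, with CD25+ means of 7.27 in peripheral and 7.21 in mesenteric nodes and CD25- means of 8.73 and 7.12 (interaction -1.55, adjusted p = 0.322). Myb did too, with CD25+ means of 7.20 and 6.67 and CD25- means of 8.83 and 6.57 (interaction -1.73, adjusted p = 0.461). For Tmem176a it was the CD25+ cells that were unlike: 6.05 to 7.10 in peripheral and 7.72 to 9.58 in mesenteric nodes, against 4.36 to 4.62 and 4.33 to 4.40 in CD25- cells (interaction -2.04, adjusted p = 0.538).

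Pancreatic Treg and Teff cells of IgG-treated mice differ from the node sorts in gate, treatment and tissue. For the interaction below, their arrays were quantile-normalized together with the node arrays. The differences within each tissue came from separate fits without that normalization, and so do not subtract exactly to the interaction. Peripheral and pancreatic differences correlated at r = 0.628 across probe sets, and 878 of the 955 peripheral calls had the same sign in the pancreas. The same-sign share over all probe sets was not computed for the pancreas, so that count has no baseline. The difference of differences passed for 52 probe sets (0.419%), 16 more positive and 36 more negative in peripheral nodes. Without single peripheral arrays the count was 19 (CD25+ replicate 2, and likewise CD25- replicate 2) to 108 (CD25+ replicate 1), and 81 without CD25+ replicate 3. Trgv1 differed by 4.00 in peripheral nodes and 2.11 in the pancreas (interaction 1.84 ± 0.20, adjusted p = 0.00012), and Tmem176b by 2.51 and 0.56 (1.97 ± 0.43, adjusted p = 0.0456). Among the genes shifted the other way, Il10 differed by 0.47 in peripheral nodes and 2.30 in the pancreas (interaction -1.84 ± 0.31, adjusted p = 0.0107). The decoy receptor Il1r2 differed by 0.86 and 2.88 (-2.10 ± 0.45, adjusted p = 0.0385), though a dimmer Il1r2 probe set gave 0.36 in peripheral nodes. Top2a, the topoisomerase of dividing cells, differed by -0.63 in peripheral nodes, which did not pass, and 1.42 in the pancreas (-2.04 ± 0.40, adjusted p = 0.0234). Slbp, which binds the stem-loop of histone mRNAs, differed by -1.43 and 0.45 (-1.88 ± 0.22, adjusted p = 0.000404). Socs2 and Klrg1 had similar values in both tissues, 3.94 and 3.83 for Socs2 and 3.42 and 3.89 for Klrg1.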

How the data were processed

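Each array gave 1 linear intensity per probe set in the deposited values, made by the authors with RMA (no version) per the submitters' processing notes. Medians of the 14 node arrays lay within 0.1 on the log2 scale, so log2 was taken without further normalization. The 66 Affymetrix controls were left out, and 12422 probe sets were tested: 10833 name 1 gene, 396 several and 1193 none. Symbols come from the platform annotation, and 8237 of 8251 matched the RefSeq gene table by Entrez identifier. Where a gene had several probe sets, the one brightest on average over the 6 peripheral arrays stood for it. The control names of the node arrays were stored out of order: over the 66 controls r with the pancreatic arrays was 0.254 as stored and 0.952 after reordering by letter case. The reordered names gave the 3'/5' ratios.

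The 14 node arrays entered 1 linear model of 4 group means (limma 3.58.1, R 4.3.3, moderated by eBayes, two-sided), with Benjamini-Hochberg adjustment over all probe sets and a threshold of 0.05. The pancreas interaction used quantile normalization of the node arrays with the pancreatic ones. Pancreatic differences came from a fit of the pancreatic arrays alone, without that normalization. Values are log2 differences of CD25+ minus CD25- cells with SE. Named were the 20 largest rises and 20 largest falls among called genes with groups that do not overlap, called members of 30 lists (483 of 614 genes measured), a few fixed genes, and up to 8 genes per interaction. The Y-linked genes were added later. Members and lists were chosen with earlier results of these data known. The fits were tested on simulated data. The number of arrays limits the precision. Same-numbered CD25+ and CD25- arrays deviated together with r = 0.23, 0.015 and 0.144. Differently numbered ones gave -0.359 to 0.252, the highest for CD25+ replicate 3 with CD25- replicate 2. The numbers were not taken to pair the arrays, but so few arrays cannot show that they were unpaired.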

Additional observations from a re-analysis of the deposited data

Results flagged for a closer look

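The interaction of site and sort passed for 1 probe set of Eomes: its CD25+ minus CD25- difference was lower by 2.3236 in peripheral than in mesenteric nodes (-2.3236 on the log2 scale), and the brighter Eomes probe set did not pass.

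The difference between peripheral node and pancreatic cells passed for 52 probe sets, and the genes with the 8 largest are given here as peripheral minus pancreatic difference. Those more positive in peripheral nodes were Trgv1 (1.8446) and Tmem176b (1.9696). Those more negative were Il10 (-1.8445), Slbp (-1.8776), Top2a (-2.0405), Fignl1 (-2.078), Fam3c (-2.0931) and Il1r2 (-2.1029). For Fignl1 the value comes from a dimmer probe set, which differed by -1.82 in peripheral nodes, while the brighter one differed by 0.15. For Fam3c the named probe set differed by -0.81 in peripheral nodes (adjusted p = 0.0687; -1.10 and 0.00582 without CD25+ replicate 1), and another differed by 1.04 (adjusted p = 0.028). Gate, treatment, tissue and array set differ between these comparisons and cannot be told apart.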

How the results depend on the processing

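The count of 955 calls was 513 (93 higher, 420 lower) when only the 6 peripheral arrays were fitted, and 267 with the actin ratio as a covariate. It was 531 to 1462 without single peripheral arrays. Other settings gave 892 (quantile normalization, 296 higher and 596 lower), 957 (median-centred, 175 and 782), 904 (probe sets with a mean of at least 5) and 916 (trended, robust variance). The replicate number as a block within each site gave 1109, and the run of array numbers in the labels as a block gave 1118. CD25+ replicate 3 and CD25- replicate 2 lay in a later run than the other peripheral arrays, together with some mesenteric arrays. All 94 called named genes had the same sign within each run. The groups of these genes do not overlap, which fixes the sign within each run and without any single peripheral array. Those signs are therefore no test of run or array. With the replicate block, Selp (0.0687), Il10rb (0.0964) and Ifi47 (0.0697) lost and Top2a (0.00781) gained the call. None of the 94 changed sign without single peripheral arrays, with the actin covariate or after quantile normalization, whereas Uty, which did not pass, did (0.07, against -0.20 without CD25+ replicate 1 and -0.33 with the actin covariate). Of the 94, 62 kept the call without each peripheral array in turn and 43 kept it with the actin covariate. In the 6-array fit 29 lost it. Quantile normalization ended the calls of Tbl1xr1 (0.0557), Hnrnpm (0.0591), Ifi47 (0.105), Hsph1 (0.0584) and Rgs16 (0.108). The site interaction gave 0 calls (limma; 151 at an unadjusted p under 0.05) among probe sets with a mean of at least 5, which leaves out the Eomes probe set, and 1 to 2 without single arrays. The pancreas interaction gave 43 after median-centring and 19 to 108 without single peripheral arrays. The cause of these shifts was not tested. With 3 arrays a group, a p that misses the threshold does not show equal levels.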
